A study of Caenorhabditis elegans with 24 samples.

Results

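Total RNA of whole young adult worms was compared between wild type and tdp-1(ok803), a deletion mutant of the gene for TDP-1. TDP-1 is the Caenorhabditis elegans ortholog of TDP-43, a nuclear RNA-binding protein that forms inclusions in amyotrophic lateral sclerosis and frontotemporal dementia. The libraries were made from the input, the part of each worm extract that was set aside before double-stranded RNA was pulled down with the J2 antibody. There was 1 input library per genotype among the 24 samples of the series, so no difference below has a replicate check and none was tested. Wild type was the N2 laboratory strain, labelled N2-CGC B, and both populations were raised at 15 °C on solid plates. Each value is a normalised count, rounded to a whole number, for 1 gene in 1 library. Genes with a value of at least 20 in either library were taken, which gave 5385 of the 8783 genes listed. Of these, 4704 reached 20 in both libraries, 481 only in wild type and 200 only in tdp-1(ok803). The question the comparison addresses is which RNAs differ in abundance before any selection for a poly(A) tail or for double-stranded RNA.

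Total RNA holds the structured, untailed RNAs of the translation and splicing machinery beside mRNA. Transfer RNAs carry amino acids to the ribosome, small nuclear RNAs form the cores of the spliceosome, and small nucleolar RNAs guide the modification of ribosomal and other RNAs. In worms, SL1 and SL2 RNAs donate the short leader that is spliced onto the 5′ end of most mRNAs. TDP-43 family proteins bind UG-rich RNA and are known for roles in splicing and RNA stability.

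The targeted gene, tdp-1, had a normalised count of 38 in wild type and 12 in the library labelled tdp-1(ok803), a log2 ratio of -1.58. The mutant value was below that of wild type and above 0. The deleted bases were not examined here, so it is not known where in the gene the remaining reads lie.

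The ratio used throughout is log2 of (tdp-1(ok803) + 1)/(wild type + 1). The sums over the table were close, at 900993 in wild type against 888366 in tdp-1(ok803), but most genes were lower in the mutant. Of the 5385 genes, 4064 were lower, 1182 were higher (21.9%) and 139 were equal, and the median gene had a log2 ratio of -0.23. Class values below are therefore read against this median gene as well as against 0, and no direction is given for a class whose median lies between them. At or past 2-fold stood 267 genes that were higher in tdp-1(ok803) (4.96% of those taken) and 107 that were lower (1.99%). With ratios centred on the median gene these counts became 342 and 47. The 123 genes just inside the minimum, with a larger value of exactly 20, had a median log2 ratio of -0.22, and the 134 just outside it, at 19, had -0.15.

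**Figure D1:**
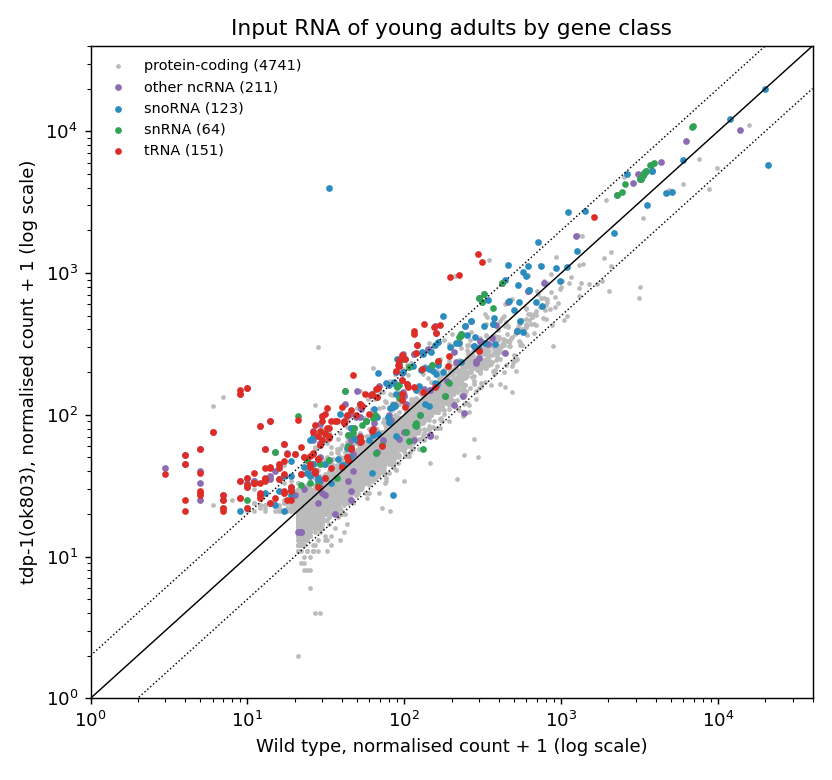
Normalised count + 1 in the tdp-1(ok803) input library against the wild-type input library, both on log scales, with 1 point per gene taken, coloured by gene class. The solid line marks equal values and the dotted lines 2-fold differences. Most of the 151 tRNA genes lie above the solid line, and the snoRNA gene T26A8.6 lies alone at 32 in wild type and 3951 in the mutant.

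Genes for structured noncoding RNAs were higher in tdp-1(ok803) and made up most of the genes 2-fold higher. Of those 267 genes, 105 were tRNA genes, 79 other ncRNA genes, 47 protein-coding, 21 snoRNA and 12 snRNA genes. By contrast, 96 of the 107 genes 2-fold lower were protein-coding. The summed normalised count of tRNA, snRNA and snoRNA genes was 180829 in wild type against 228685 in tdp-1(ok803). The protein-coding genes summed to 589124 and 500788, or 65.4% and 56.4% of the totals over the table. Part of these sums comes from short RNAs inside or beside the genes, as described below. The 4407 protein-coding genes free of such neighbours summed to 431293 and 329744, or 47.9% and 37.1%. Because counts are relative within a library, more of one class and less of another cannot be told apart.

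tRNA genes stood well above the median gene. Of 252 listed, 151 were taken, 148 of them were higher and 105 (69.5%) were at least 2-fold higher, beside 4.96% of all genes. Their median log2 ratio was 1.26, with an interquartile range from 0.78 to 1.65. In wild type they ranged from 2 to 1610 with a median of 28, and in tdp-1(ok803) from 20 to 2467 with a median of 65. The 2 distributions overlap, but the same gene was nearly always higher in the mutant.

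The minimum of 20 favours genes that are high in either library, and 57 tRNA genes passed only through tdp-1(ok803) against 0 only through wild type. Among the 94 that reached 20 in wild type the median log2 ratio was 1.11, and 56 were at least 2-fold higher. The X chromosome, which holds many worm tRNA genes, carried 71 of those taken, with a median of 1.26, and the 80 on autosomes also had a median of 1.26. Copies of a tRNA gene can be identical in sequence, so the split of reads between copies is uncertain.

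Among tRNA genes with higher values, Y57A10C.t1 stood at 295 in wild type against 1352 in tdp-1(ok803), a log2 ratio of 2.19. E01H11.t1 stood at 313 and 1202, T15B12.t1 at 195 and 933, and F14B6.t2 at 221 and 973. The tRNA gene with the highest value in both libraries, T22C1.t1, differed less, at 1610 and 2467. The 3 tRNA genes that were not higher were rte-5 at 71 and 59, Y53C10A.t3 at 299 and 283, and F52E10.t3 at 157 and 156. The size of the difference thus varied widely between single tRNA genes, and these 3 were near equality or slightly lower.

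snRNA genes were higher by a narrower margin. Of 64 taken, 52 were higher, and 12 (18.8%) were at least 2-fold higher, with a median log2 ratio of 0.62. The 16 snRNA genes with values over 1000 in wild type, between 2266 and 6880, moved as a block, with log2 ratios between 0.53 and 0.72. Their summed value was 58862 in wild type and 89917 in the mutant. snRNA genes of worms occur in many near-identical copies, so these 16 are not independent of each other. The other 41, leaving out SL2 genes and mir-1831, spread from -0.72 to 1.15, and 11 of them were lower.

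The SL2 genes, annotated as snRNA and named sls-2, donate the trans-spliced leader used by downstream genes of operons, and were grouped after their values were seen. Of 15 listed, 6 were taken, and 2 of them passed the minimum only through tdp-1(ok803). All 6 were at least 2-fold higher, with a median log2 ratio of 1.58 and summed values of 210 and 640. sls-2.1 stood at 96 in wild type against 245 in tdp-1(ok803), sls-2.4 at 41 and 147, and sls-2.16 at 20 and 97. The lowest ratio of the 6, for sls-2.8 at 30 and 73, was 1.26, above the range of the abundant snRNA genes.

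snoRNA genes were also mostly higher, by less among the most abundant of them. Of 123 taken, 103 were higher and 20 lower, with a median log2 ratio of 0.47. At least 2-fold higher were 21 (17.1%) and at least 2-fold lower were 2. Split by the wild-type value, the 109 under 1000 had a median of 0.53, whereas the 14 at or above 1000 had a median of 0.02, with 8 of the 14 higher. W08G11.6 stood at 20009 and 19880 and T02E1.9 at 11884 and 12178, which are near equality.

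A pair of snoRNA genes stood far from the rest, in opposite directions. T26A8.6 had 32 in wild type against 3951 in tdp-1(ok803), which is 123-fold higher and the largest ratio of any gene taken. C51F7.3 had 20753 in wild type against 5766 in tdp-1(ok803), a log2 ratio of -1.85. Without this pair the summed snoRNA value was 86509 in wild type and 99330 in the mutant, and with it 107294 and 109047. The roles of the RNAs of T26A8.6 and C51F7.3 are not annotated in the tables used here.

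Several large differences listed under protein-coding genes belong to short RNAs that lie inside or beside them. frm-7, a gene of the FERM domain family, stood at 20859 and 5835, and C51F7.3 inside it accounted for 99.3% of its value over both libraries. pkc-2, a protein kinase C gene, stood at 348 and 1227 with the tRNA gene E01H11.t1 inside it at 313 and 1202. rol-3, a receptor tyrosine kinase gene, stood at 2640 and 5058 with 99.3% held by the snoRNA gene C16D9.11. rpl-6, a ribosomal protein gene, stood at 2522 and 4739 with more than 50% held by the snoRNA gene R151.13, and cat-1, the vesicular monoamine transporter, at 62 and 214 with 51.4% held by a tRNA gene. The values of these host genes say little about their mRNA and are uncertain.

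Among all genes taken, 297 had at least 50% of their value in a shorter noncoding gene inside or within 500 bases, and 141 of these were protein-coding. Of the 211 other ncRNA genes, 151 were of this kind, so their median log2 ratio of 0.61 largely repeats that of the tRNA and snoRNA genes they contain. The 320 protein-coding genes that overlap or adjoin a tRNA, snoRNA or snRNA gene had a median of -0.04, and 27 were at least 2-fold higher. The 4407 protein-coding genes with no such neighbour and not carried by another noncoding gene had a median of -0.27. Of these, 20 were at least 2-fold higher (0.454%) and 93 at least 2-fold lower (2.11%).

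**Figure D2:**
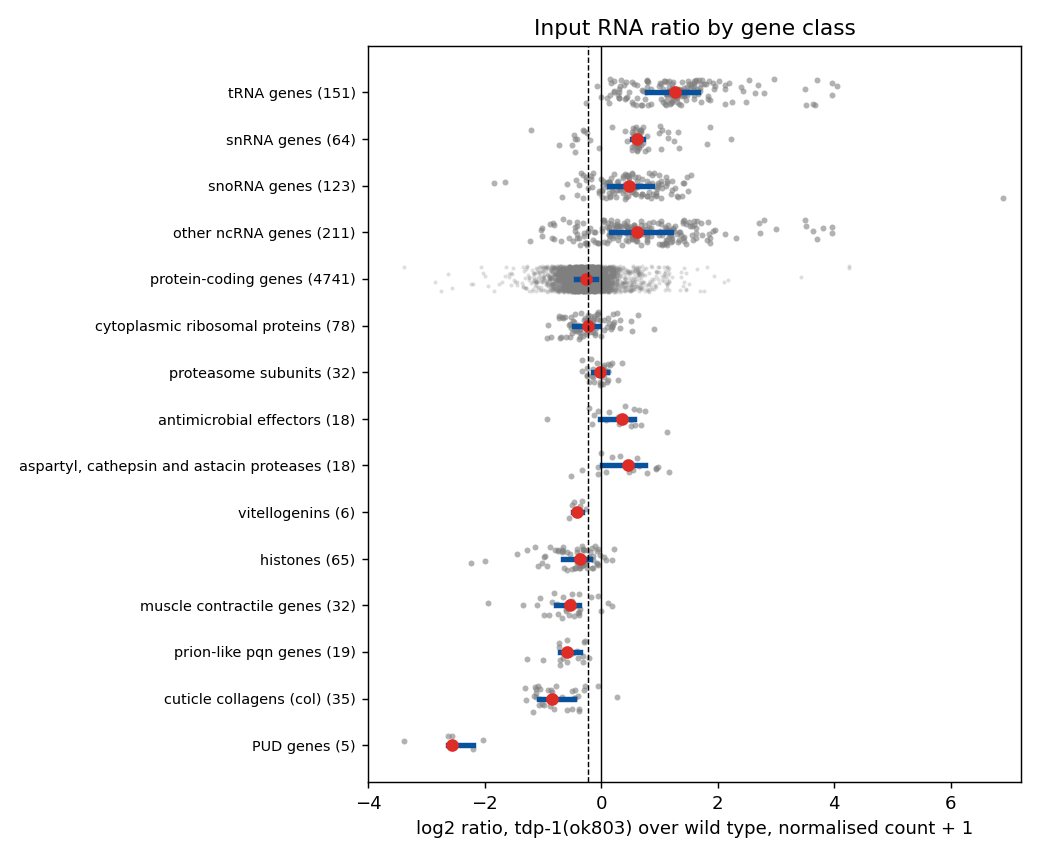
Log2 ratio of tdp-1(ok803) over wild type (normalised count + 1) for every member taken of 15 classes, with the number of members in brackets. Red dots are class medians, blue bars interquartile ranges, the solid line is 0 and the dashed line the median gene at -0.23. tRNA genes centre on 1.26, col collagens on -0.84 and PUD genes on -2.56.

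Within these 4407 protein-coding genes, the more abundant ones had lower ratios. The 2183 genes with a mean of both libraries between 20 and 50 had a median log2 ratio of -0.23, the 671 between 100 and 300 had -0.32, and the 19 at or above 1000 had -0.55, which is fewer than 20 genes. Pooled, tRNA, snRNA and snoRNA genes also had lower medians at higher levels, from 0.98 between 20 and 50 to 0.58 at or above 1000. The mix of these classes changes with level, however. tRNA genes had the highest ratios but a wild-type median of only 28, against 117.5 for snRNA and 134 for snoRNA genes. The pooled medians therefore do not show a trend with level within a class. Among abundant protein-coding genes, anc-1, which encodes a giant protein that anchors nuclei, stood at 9875 and 5521, and ZC247.1 at 8797 and 3936.

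Cuticle collagens of the col family, structural proteins of the worm's exoskeleton, were lower in tdp-1(ok803). Of 55 col genes listed, 35 were taken, 34 were lower and 13 (37.1%) at least 2-fold lower, beside 1.99% of all genes. Their median log2 ratio was -0.84, and their summed value was 11010 in wild type and 6401 in the mutant. col-119, the most abundant, stood at 1306 and 690, and col-124 at 1042 and 462. The lowest ratio among members with a mean of at least 50 was that of col-81, with 258 in wild type and a log2 ratio of -1.30, and the highest was that of col-160, at 210 and 203. col-19, a collagen of the adult cuticle, stood at 543 and 310. Collagens thus ranged from near equality to more than 2-fold lower, and the mutant was lower for nearly all. A list of cuticle genes with body shape phenotypes, with 5 taken of 11 listed, had a median of -0.05, and 3 were above the median gene. It held the collagens dpy-14 at 46 and 38, sqt-3 at 26 and 25, and dpy-17 at 32 and 39, and also bli-4 and rol-3, which are not collagens.

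Muscle genes were lower as well. Of 32 contractile genes taken, 29 were lower, 27 were below the median gene and 4 were at least 2-fold lower, with a median log2 ratio of -0.54. unc-54, the myosin heavy chain of body wall muscle, stood at 2064 in wild type against 1413 in tdp-1(ok803), and unc-22, the giant muscle kinase twitchin, at 1338 and 844. myo-2 and myo-1, the myosins of the pharynx, stood at 514 and 202 and at 499 and 241. Among members with a mean of at least 50, tnt-4, a troponin T gene, had the lowest ratio, at 80 and 20, and pat-10, a troponin C gene, the highest, at 128 and 146.

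Histone genes were lower, mainly through histone H4. Of 65 taken, 61 were lower, with a median log2 ratio of -0.37, and all 7 that were at least 2-fold lower were H4 genes. his-46 stood at 3145 and 669, his-56 at 3178 and 793, and his-64 at 2028 and 743. These 3 genes held 8351 of the 11414 normalised counts of H4 in wild type, and 2205 of 3956 in the mutant. The remaining 12 H4 genes had a median of -0.56. Split by type after the values were seen, the medians were -0.68 for H4, -0.46 for H2B, -0.31 for H3 and -0.26 for H2A. H4 genes encode the same protein from many copies, so reads may be divided between them and single values are uncertain.

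Yolk genes were lower too, but not below other genes of their level, and sperm genes had low values. The 6 vitellogenins, yolk proteins made in the adult intestine for oocytes, had a median log2 ratio of -0.42, and their summed value was 40491 in wild type against 30357 in tdp-1(ok803). vit-6 stood at 15668 and 11079 and vit-2 at 7583 and 6327. The 19 protein-coding genes with a mean at or above 1000, described above, include the vitellogenins and had a median of -0.55. The lowest vitellogenin ratio, that of vit-1, was also -0.55, so yolk genes did not stand below genes of their level. The major sperm proteins drive crawling of sperm and signal to oocytes. Of 29 listed genes 5 were taken, all through wild type alone, so their median of -1.24 follows from the minimum, and msp-19 stood at 27 and 10. With no minimum, all 30 sperm markers listed, nearly all of them msp genes, were lower, with summed values of 335 and 153. Of 5 other sperm genes taken, 3 passed only through wild type. The 2 that reached 20 in both libraries went 1 each way, with a median of -0.06, and cpb-1 stood at 34 and 30. The msp genes and vit-3, vit-4 and vit-5 are near-identical copies, which makes their single values uncertain.

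Other lists below the median gene included genes of meiotic chromosomes, with a median log2 ratio of -0.38 and 7 of 30 above the median gene, and pqn genes, which encode proteins with prion-like glutamine- and asparagine-rich stretches. All 19 pqn genes taken were lower, with a median of -0.58, but 6 passed the minimum only through wild type, and the 13 that reached 20 in both libraries had a median of -0.42. pqn-59 stood at 637 and 437. Among the 39 genes of double-stranded RNA processing the median was -0.35, and 11 were above the median gene. dcr-1, which encodes Dicer, stood at 168 and 136, and rde-4, a cofactor of Dicer, at 81 and 56. The RNA-editing genes adr-1 and adr-2 stood at 64 and 52 and at 42 and 34. The 99 genes whose transcripts hold an edited region in the deposited editing list had a median of -0.27, close to the -0.23 of all genes.

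Genes of splicing regulators did not stand apart from other protein-coding genes. The 18 hnRNP and related genes taken had a median log2 ratio of -0.27, and the 10 SR protein genes -0.29. hrpa-1, an hnRNP A1 ortholog, had the lowest ratio among the former with a mean of at least 50, at 192 and 109, and hrpk-1 the highest, with a log2 ratio of -0.09. The 78 genes of cytoplasmic ribosomal proteins had a median of -0.22, with rps-26 at 500 and 261 and rpl-24 at 3738 and 5783, and 4 of them had most of their value in a noncoding gene. The 32 proteasome subunits had a median of -0.02, and 27 were above the median gene.

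Proteases and antimicrobial proteins, many of which act in the gut, were the lists of protein-coding genes with most members higher in tdp-1(ok803). Of 18 aspartyl, cathepsin and astacin protease genes taken, 13 were higher and 16 were above the median gene, with a median log2 ratio of 0.46. The asp genes, for aspartyl proteases, carried this, and they were grouped after their values were seen. Of 9, 8 were higher, with a median of 0.79, and 2 of the 8 passed the minimum only through tdp-1(ok803). The 7 that reached 20 in both libraries had a median of 0.65. asp-1 stood at 328 and 514, asp-6 at 335 and 490, asp-3 at 196 and 302, and asp-5 at 43 and 97. asp-13 was the exception, at 29 and 20. Cathepsin genes were less uniform, with cpr-6 at 100 and 140, cpr-1 at 397 and 395 and cpr-9 at 383 and 303.

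Antimicrobial effectors, which include lysozymes and saposin-like proteins, had a median log2 ratio of 0.36. Of 18 taken, 13 were higher, beside 21.9% of all genes, and 17 were above the median gene. irg-7, the most abundant, stood at 250 and 310, spp-5 at 82 and 121, lys-7 at 59 and 79, and fipr-24 at 58 and 128. fipr-21 went the other way, at 22 and 11. C-type lectins, secreted sugar-binding proteins that are often linked to defence, went both ways. clec-63 stood at 109 and 230, clec-209 at 5 and 114, clec-223 at 485 and 143, and clec-52 at 24 and 5.

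**Figure D3:**
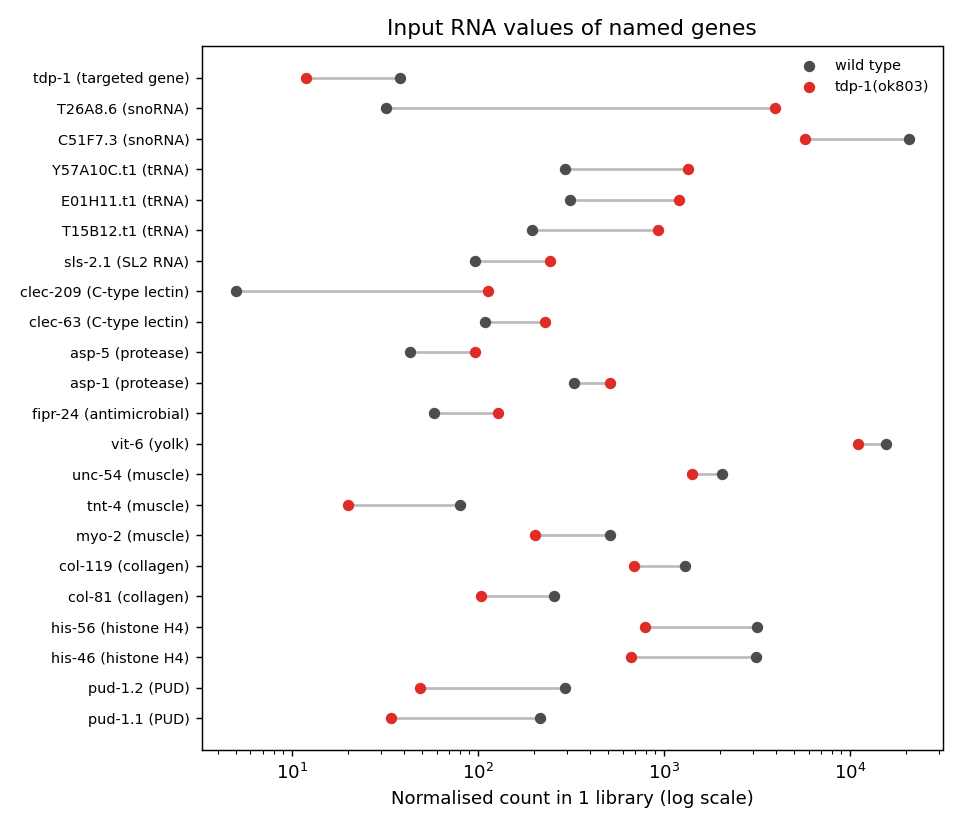
Normalised counts of 22 genes in the wild-type (grey) and tdp-1(ok803) (red) input libraries, on a log scale, with 1 value per genotype and the gene class in brackets. The noncoding genes except C51F7.3 and the lectin, protease and antimicrobial genes shown are higher in the mutant, and the yolk, muscle, collagen, histone H4 and PUD genes are lower. The 2 lectins shown do not stand for their list, in which 6 of 11 taken were higher and 5 lower. The most abundant lectin, clec-223, is not shown and was lower, at 485 and 143.

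The largest ratios among protein-coding genes, in both directions, came from neighbouring genes on chromosome V, a pattern found after the values were seen. The 6 PUD genes, which encode small proteins named for being up-regulated in animals with reduced insulin signalling, stand next to each other in the RefSeq annotation of assembly WBcel235. All 6 were lower. pud-1.2 stood at 293 in wild type against 49 in tdp-1(ok803), pud-2.2 at 238 and 51, pud-2.1 at 277 and 67, and pud-1.1 at 216 and 34. pud-3 stood at 20 and 1 and pud-4, below the minimum, at 15 and 1. pud-1.1 and pud-1.2, and pud-2.1 and pud-2.2, are close copies, so the split within each pair is uncertain.

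The genes that follow the PUD genes on chromosome V were higher, without exception among those listed. From irld-53 to Y45G12C.16 the table lists 15 protein-coding genes, all 15 higher in tdp-1(ok803), with log2 ratios between 0.68 and 4.26 and a median of 1.58. Only 5 of the 15 reached the minimum of 20. clec-209 stood at 5 and 114, F56A4.2 at 6 and 133, F56A4.3 at 5 and 22, mct-1 at 26 and 58 and mct-2 at 30 and 65. Below the minimum, irld-53 stood at 0 and 9, irld-35 at 0 and 11, Y19D10A.16 at 6 and 16, and C01B4.6 at 6 and 19. The summed value of the 15 was 114 in wild type and 525 in the mutant. With 1 library per genotype, a difference between the populations on chromosome V other than the tdp-1 deletion cannot be told apart from an effect of the deletion.

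Most of these genes have a partner of equal annotated length. clec-209 and F56A4.2 have the same annotated length of 1257 bases, irld-53 and irld-35 of 2111, and Y19D10A.16 and C01B4.6 of 1376, in the same order in 2 adjacent stretches, and the values of each pair are close. F56A4.3 has no such partner, and mct-1 and mct-2 differ in annotated length. Reads of such copies may be shared, so a pair is closer to 1 measurement than to 2. The PUD genes and the 15 others span 50 annotated protein-coding genes, of which 21 are listed. Among 6909 windows of 10 consecutive listed protein-coding genes with no short RNA neighbour, the highest median log2 ratio, 1.82, was that of the window from irld-53 to F56A4.2. The lowest, -2.12, was that of the window that holds the PUD genes. The next lowest window apart from it, on chromosome IV from cylc-1 to msp-59, had -1.19.

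**Figure D4:**
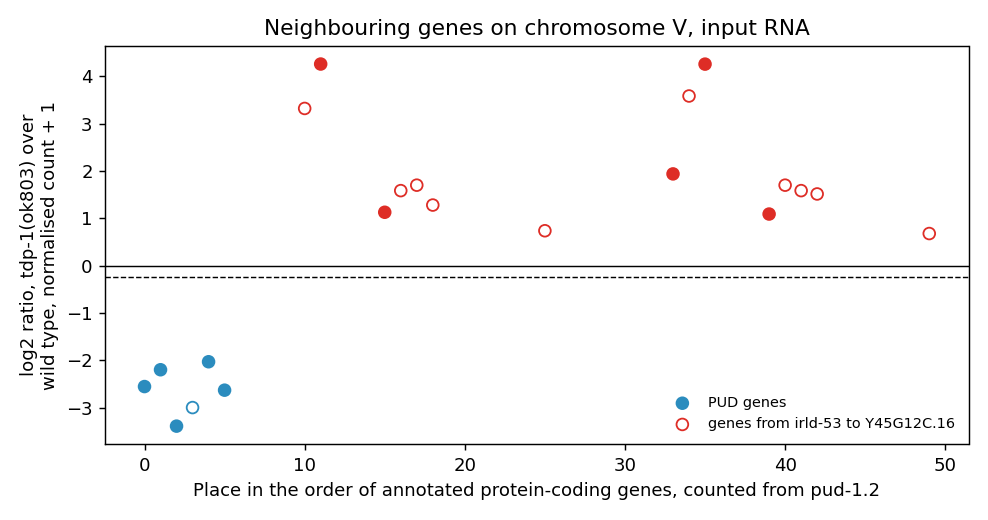
Log2 ratio of tdp-1(ok803) over wild type (normalised count + 1) for the 21 listed genes from pud-1.2 to Y45G12C.16, by place in the order of annotated protein-coding genes on chromosome V. Filled points reached the minimum of 20 and open points did not, the solid line is 0 and the dashed line the median gene at -0.23. The 6 PUD genes lie between -3.39 and -2.03 and the other 15 between 0.68 and 4.26.

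Markers of the stage and of the main tissues were checked against the label of whole young adults. All 10 oocyte and yolk markers were listed and reached 20, with summed values of 32834 in wild type against 24842 in tdp-1(ok803), and col-19 and the 6 germ line markers were present in both. Of the larval epidermis markers only col-10 was listed, at 16 and 9. Every summed marker list was lower in the mutant. The ratio of mutant to wild type was 0.757 for oocyte and yolk, 0.774 for germ line, 0.745 for intestine and 0.762 for neurons. It was 0.666 for body wall muscle, 0.569 for adult epidermis, 0.457 for sperm and 0.444 for pharynx. These are ratios of sums, in which abundant genes weigh most. The same ratio over the 4407 protein-coding genes with no short RNA neighbour was 0.765, while the median gene stood at 0.852. Oocyte and yolk, germ line, intestine and neurons were thus close to protein-coding genes as a whole, and the other lists were below them. The oocyte and yolk ratio was set by the 3 yolk genes vit-2, vit-5 and vit-6, with a ratio of 0.743. The 7 other oocyte markers summed to 3640 and 3162, a ratio of 0.869, close to the median gene and above 0.765. Eggshell genes, made in oocytes, had a median log2 ratio of -0.15, and 16 of 21 were above the median gene. The intestine ratio rested on 3 of 7 markers, with ifb-2 at 85 and 48. A wider list of 12 intestinal genes summed to 1483 and 1575, with 10 lower in the mutant but 8 above the median gene. The neuron ratio rested on 5 of 7 markers, with egl-21 at 24 and 24 and rab-3 at 4 and 4. Synaptic vesicle genes not carried by a noncoding gene had a median log2 ratio of -0.23, that of the median gene. In whole animals fewer cells of a type and less RNA per cell cannot be told apart, and the part of tissue make-up or of a difference in stage in these values was not tested.

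A replicated readout of the same genotypes exists in poly(A) RNA, from L4 larvae at 20 °C, with 3 wild-type and 3 tdp-1(ok803) libraries. The poly(A) set shares no library with the input, but differs from it in stage, temperature and selection of RNA, which cannot be told apart. The series also holds replicated total RNA libraries of both genotypes, raised at 20 °C, whose expression values were not used here. limma called 0 of 15807 genes higher (0%) and 0 lower (0%) at an adjusted p under 0.05, with 413 at an unadjusted p under 0.05. Of the input genes taken, 4526 were tested there, and no gene annotated as tRNA, snRNA or snoRNA was among them. With replicates 2 and 3 alone (chosen with the values known), limma called 334 of 15284 genes higher and 351 lower. Among the 4526 input genes, 23 were called higher and 164 lower in that fit. All 3 mutant libraries lay above all 3 wild-type libraries for 112 of the 4526 input genes tested, and below them for 148. Over all 15807 poly(A) genes these counts were 700 (4.43%) and 551 (3.49%), so both shares were lower among the input genes. tdp-1 itself had poly(A) normalised counts of 2156, 3501 and 4322 in wild type against 915, 3542 and 3478 in tdp-1(ok803), so the groups overlapped.

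Collagens and PUD genes were lower in poly(A) RNA also, although different PUD genes held most of the counts there. Of 29 col genes tested, 25 were lower, with a median log2 fold change of -0.56, beside 2706 of 4526 and a median of -0.07 for all input genes tested. For 8 of the 29, all 3 mutant libraries lay below all 3 wild-type libraries, and 0 passed the limma test. Their summed normalised counts were 759862, 835256 and 908393 in wild type against 667672, 513851 and 532990 in tdp-1(ok803). With replicates 2 and 3 alone 10 of the 29 were called lower and 3 higher, beside 164 and 23 of the 4526 input genes. col-81 had 29218, 47099 and 39797 in wild type against 10228, 20440 and 22259 in tdp-1(ok803), without overlap.

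pud-3, the PUD gene with the highest poly(A) values, had 17649, 62645 and 67246 in wild type against 9607, 27817 and 24088 in tdp-1(ok803). pud-4 had 9505, 21493 and 22551 in wild type and 3477, 8529 and 7015 in the mutant. The mutant libraries of pud-4 all lay below those of wild type, whereas those of pud-3 overlapped. pud-1.1, pud-1.2, pud-2.1 and pud-2.2, which had the higher values in the input, stood only between 0.887 and 91.1 in the poly(A) libraries. The groups did not overlap for pud-1.1 and pud-1.2, and overlapped for pud-2.1 and pud-2.2. Of the 15 genes that follow them on chromosome V, 14 stood at 0 in all 6 poly(A) libraries, so they could not be compared. The remaining one, F56A4.3, had 5.50, 0 and 0 in wild type against 2723, 1.02 and 1.06 in tdp-1(ok803), so that 1 mutant library carried nearly all of its reads. Most of the 14 have a partner of equal annotated length, which F56A4.3 lacks, and the pud-1 and pud-2 genes are close copies too. How reads of copies were counted in the poly(A) and input values was not examined. Zero or low poly(A) values of these genes therefore need not mean little RNA.

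Vitellogenins were lower in poly(A) RNA with a larger difference than in the input. Their summed values were 186941, 483193 and 523411 in wild type against 88283, 120614 and 149463 in tdp-1(ok803), with all 3 mutant libraries lower, a median log2 fold change of -1.40 and 0 of 6 past the limma test. For 1 of the 6, vit-6, the groups did not overlap, and with replicates 2 and 3 alone all 6 were called lower. Other reproductive genes went the same way in those replicates, with 5 of 5 major sperm protein genes, 21 of 35 oocyte regulators and 9 of 21 eggshell genes called lower. Of all 4526 input genes, 164 were called lower and 23 higher in those replicates. The summed log2 ratios of the oocyte regulators were 0.49, -0.88 and -1.03 in replicates 1 to 3. The part of the stage of each library in these values was not tested. Muscle genes went both ways. Of 30 tested, 15 were higher and 15 lower, with a median of -0.02. Protease and antimicrobial genes were compared in the same way, beside 2706 of 4526 input genes lower in poly(A) RNA, and 0 of either list passed the limma test. Of 18 proteases, 16 were lower in poly(A) RNA, with a median of -0.41, and of 18 antimicrobial effectors 13 were lower, with a median of -0.36. asp-5 had 202040, 73871 and 93973 in wild type against 204978, 58065 and 63698 in tdp-1(ok803), so replicate 1 stood apart in both genotypes and the groups overlapped.

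**Figure D5:**
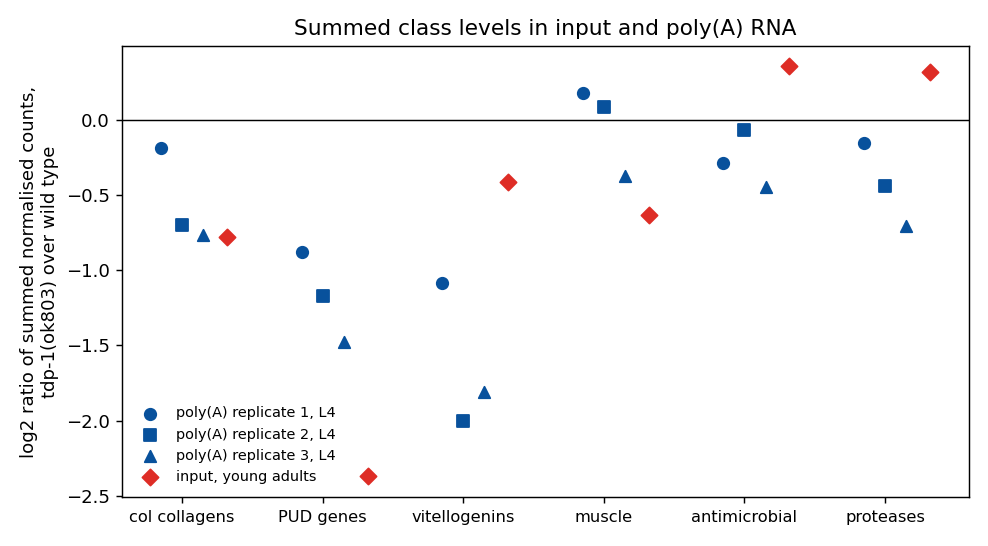
Log2 ratio of summed normalised counts, tdp-1(ok803) over wild type, for 6 gene classes, with a blue point for each same-numbered pair of poly(A) libraries of L4 larvae and a red diamond for the single pair of input libraries of young adults. Collagens, PUD genes and vitellogenins lie below 0 in all 4 pairs, and antimicrobial effectors and proteases lie above 0 in the input and below 0 in the 3 poly(A) pairs. The PUD sum is mostly pud-3 in poly(A) RNA, and mostly pud-1.1, pud-1.2, pud-2.1 and pud-2.2 in the input.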

How the data were processed

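Input RNA of young adults was extracted with TRIzol and made into strand-specific libraries, and reads were freed of rRNA, aligned to WS220 and counted per gene. The submitters' processing notes name CASAVA 1.8, TopHat2 2.0.10, Bowtie2 2.1.0, HTSeq 0.5.4p3 and DESeq 1.16. The input table, as deposited, holds 1 score per gene and library, a normalized count that the authors rounded to a whole number. Neither its scaling nor the depth is given in the sources used here, so no counting interval is printed. Whether counting used strand is not given either, so overlapping and antisense genes cannot be separated.

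Poly(A) values were deposited as normalized counts, a signal of which 100% of values in each library were whole multiples of 1 step (within 0.01 of a read), which gave 65546397 to 107297985 reads per library. Per the deposited editing list, gene names only were used. Its columns for change in percentage points, fold and p-value hold the authors' comparisons and were not used.

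Gene names and classes came from RefSeq WBcel235, to which 8646 of 8783 input genes matched. Of the genes taken, 5246 matched a poly(A) row. The members and lists were chosen with earlier results of these data known. Named genes were tdp-1, the 10 largest ratios each way with a mean of at least 100, and in each list with at least 5 members the most abundant and the highest and lowest ratio with a mean of at least 50; others were chosen after their values were seen.

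Poly(A) values, with 1 added and taken to log2, were tested in limma 3.58.1 (R 4.3.3, trended variance) for genes with at least 10 in at least 3 libraries, with Benjamini-Hochberg adjustment over all of them. The replicates are separate samples by label, and p-values measure the spread between them. Whether all of them come from independent cultures was not established here. Deviations of same-numbered libraries correlated at 0.657, 0.435 and 0.353, so a fit with the replicate number as a block was run. edgeR 4.0.16 was run on the recovered reads. The test was checked on simulated counts. Python 3.11.15 and pandas 2.3.3 were used for ratios and classes.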

Additional observations from a re-analysis of the deposited data

Results flagged for a closer look

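The protease and antimicrobial lists had positive log2 ratios in the input and negative ones in every poly(A) pair. The aspartyl, cathepsin and astacin proteases had an input median log2 ratio of 0.46, while their summed poly(A) level gave log2 ratios of -0.15, -0.44 and -0.71 in replicates 1 to 3. The antimicrobial effectors had an input median of 0.36 and poly(A) ratios of -0.29, -0.07 and -0.45. The sum over all input genes tested gave 0.13, -0.09 and -0.37 in the same pairs, so the antimicrobial effectors were close to all genes in replicates 2 and 3. The difference between the assays was not tested, since the input has 1 pair of libraries, and stage, temperature and RNA selection cannot be told apart.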

How the results depend on the processing

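The counts at or past 2-fold depended on the minimum and the centring. The 267 genes higher became 114 with a minimum of 100 in either library, 419 with no minimum, 452 at 1.5-fold, and 176 without genes carried by a noncoding gene, an alternative added after seeing the data. The 107 genes lower became 47 when centred on the median gene, 70 and 53 with minimums of 50 and 100, 293 with no minimum and 653 at 1.5-fold. The share of members above the median gene moved beyond its 95% Wilson interval mainly at a minimum of 100, where fewer genes remain: to 100% for tRNA genes (from 99.3%), 40.5% for protein-coding genes (from 45.2%, and 43.3% at 50), 14.8% for histones (from 29.2%), 4.55% for muscle genes (from 15.6%), 0% for pqn genes (from 5.26%), and 100% for proteasome subunits (from 84.4%). Antimicrobial effectors went from 94.4% to 100% with a mean of at least 20 and with minimums of 50 and 100. Without carried genes the share was 46.8% for protein-coding genes and 93.5% for proteasome subunits. Of the 14 classes recomputed, the medians of ribosomal proteins and proteasome subunits crossed 0, to 0.01 and 0.21 when centred on the median gene (and to 0.0008 for the proteasome with equal totals). Centring also brought brd-1, rpl-6 and rol-3 past 2-fold and acdh-1 inside it. Scaling to equal totals, a pseudocount of 5 and no pseudocount kept each of the 131 genes named by rule on its side of 2-fold. Genes named after their values were seen were not all among these.

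In poly(A) RNA, the replicate block called 1 gene higher and 0 lower, replicates 2 and 3 alone 334 and 351, and edgeR on the recovered reads 0 and 0, with 404 at an unadjusted p under 0.05. Leaving out each library in turn gave 0 to 0 calls in either direction, as did a pseudocount of 5, no filter and quantile normalization.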
